A study of Medicago truncatula and Hordeum vulgare with 90 samples.

Results

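Overexpression of NSP2 in Medicago truncatula roots raised 126 genes whose mean level in wild-type seedling roots stayed nearly flat when nitrogen, phosphate or both were withheld. NSP1 and NSP2 (Nodulation Signaling Pathway) are GRAS-domain transcription factors required for root nodule symbiosis, and they are also known for their part in strigolactone biosynthesis and mycorrhizal colonization. NSP2 transcripts are cleaved through the microRNA miR171h, and miRR-NSP2 carries a changed target site that the microRNA does not recognise. Phosphate and nitrogen starvation reprogram a large part of the root transcriptome, and the question asked here is what NSP2 overexpression raised outside that response.

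The members were chosen by their measured values in 2 count tables. Of 50894 genes, 471 had a mean CPM, the read count scaled to the size of the library, at least 2-fold above empty vector, that is at least 1 on the scale log2(mean CPM + 0.5), in both NSP2-overexpressing groups of hairy roots. Of these 471, 126 lay within 0.58 of A17 +P+N on the same scale in A17 +P-N, -P+N and -P-N seedlings, a condition that 41161 of all 50894 genes met. The other 345 raised genes were not flat in A17. The rule allowed up to 200 members, so the limit on their number was never reached. Differences between miRR-NSP2ox or NSP2ox and empty vector, and between A17 regimes, therefore chose the members and are given as a description with no test.

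The hairy-root groups were miRR-NSP2ox (pBdEF1a:3xMyc-MtNSP2-miRR), NSP2ox (pBdEF1a:3xMyc-MtNSP2), NSP1ox (pLjUBI:3xFLAG-MtNSP1) and EV (empty vector), with 3 libraries each. All were A17 roots transformed through Agrobacterium rhizogenes, selected by a RUBY reporter and then, by the study's methods, kept in sand and fed +P+N for the 21 days that the labels give. The promoters of the NSP1 and NSP2 constructs differ, so gene and promoter cannot be told apart where NSP1ox and NSP2ox are set side by side. The seedling groups were whole roots of nsp1 (nsp1-1), nsp2 (nsp2-2) and wild-type A17, both mutants in the A17 background, grown for 15 days under +P-N, -P+N, -P-N or +P+N, with 3 libraries for each of 12 groups. Library totals ran between 18251230 and 25919307 counts in hairy roots and between 16194286 and 25030726 in seedlings, and the 2 tables were normalised separately. The labels do not say whether replicates came from separate plants, so p-values measure the spread between these libraries. The identifiers could be paired with no gene name or description, so the members are given by identifier, and neither NSP1 and NSP2 themselves nor markers of root tissue could be looked up. In whole-root RNA, more cells of one kind and more RNA per cell cannot be told apart.

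Membership was sensitive to the floor set by the pseudocount. In genes of low level, this floor also let larger fold changes in A17 pass as flat. With a pseudocount of 1 the rule found 79 genes, of which 70 were among the 126, and with 0.1 it found 292, of which 77 were among the 126. Leaving out any one library gave between 115 and 153 genes, and 44 of the 126 stayed members whichever single library was left out. At the limit of the overexpression change, Medtr0366s0020 lay just inside at 1.002 and Medtr7g094010 just outside at 0.999. At the limit of the A17 change, Medtr6g069600 lay just inside at 0.579 and Medtr4g132460 just outside at 0.581.

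The members spanned a wide range of levels and mostly moderate changes. Mean levels ran between 0.563 and 260 CPM in miRR-NSP2ox (median 5.56) and between 0.53 and 249 CPM in NSP2ox (median 5.35), against 0 to 99.7 CPM in EV (median 1.55). The log2 difference from EV had a median of 1.36 in miRR-NSP2ox (range 1 to 3.90) and of 1.37 in NSP2ox (range 1 to 3.45), and 42 members changed by less than 1.2 in miRR-NSP2ox. Summed over all members, the level was 2825, 3039 and 2885 CPM in the miRR-NSP2ox libraries, 2953, 2819 and 2844 CPM in the NSP2ox libraries and 2118, 1614 and 1845 CPM in the NSP1ox libraries, against 879.4, 1051 and 948.5 CPM in the EV libraries. The rule chose members above these EV libraries in both NSP2 groups, so the separation of those groups from EV in this sum is fixed by it. The NSP1ox libraries all lay between EV and both NSP2 groups, a place that the choice of members also favours.

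**Figure D1:**
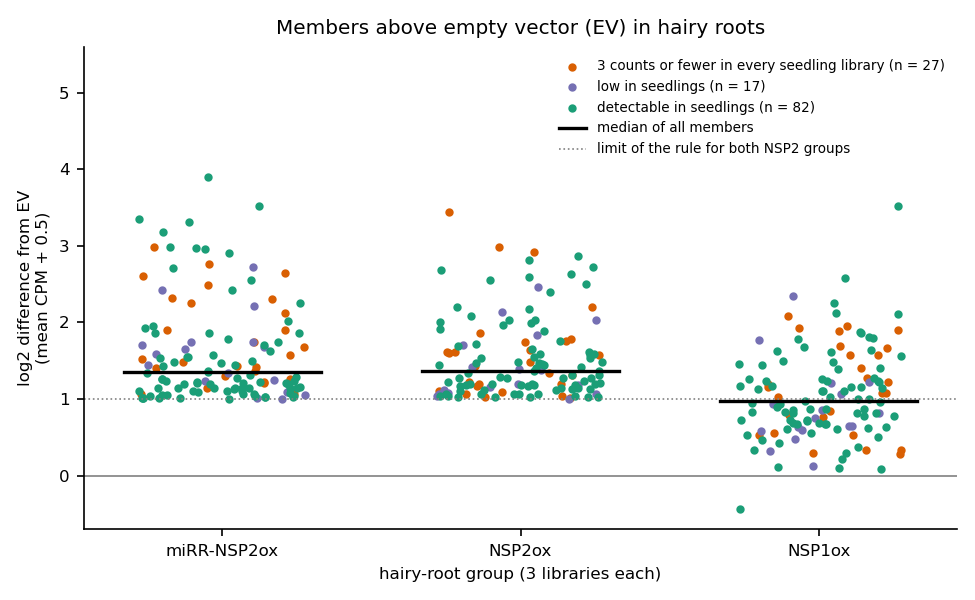
Log2 difference from empty vector (EV) on the scale log2(mean CPM + 0.5), vertical axis, for each of the 126 members in miRR-NSP2ox, NSP2ox and NSP1ox hairy roots; points are genes coloured by their level in seedling roots, black bars are medians and the dotted line is the limit of 1 that chose the members in both NSP2 groups. The medians are 1.36 in miRR-NSP2ox, 1.37 in NSP2ox and 0.97 in NSP1ox, and 1 member lies below EV in NSP1ox.

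Medtr2g105060, on chromosome 2 by its identifier, showed the largest change in miRR-NSP2ox. It had 44.5, 55.1 and 50.8 CPM in miRR-NSP2ox, 14.8, 13.2 and 16.7 CPM in NSP2ox and 7.57, 14 and 12 CPM in NSP1ox, against 1.93, 3.67 and 3.05 CPM in EV. The miRR-NSP2ox libraries stood far above all others, the NSP2ox and NSP1ox libraries overlapped, and EV was lowest throughout. The step between the 2 forms of NSP2 was wider still for Medtr5g071560, at 23.1, 23.5 and 25.4 CPM in miRR-NSP2ox, against 5.3, 4.2 and 5.05 CPM in NSP2ox, 3.86, 6.88 and 5.74 CPM in NSP1ox and 1.21, 2.77 and 1.92 CPM in EV. Medtr7g108650 had 23, 19.2 and 17.1 CPM in miRR-NSP2ox, 7.4, 5.49 and 4.94 CPM in NSP2ox and 8.11, 8.6 and 7.8 CPM in NSP1ox, against 0.938, 2.16 and 1.38 CPM in EV. In Medtr7g108650 the NSP1ox libraries were all above the NSP2ox libraries, and in Medtr5g071560 these groups overlapped.

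Among the 10 members with the largest changes in miRR-NSP2ox were also more abundant genes. Medtr2g086920 had 97.1, 91.1 and 98.6 CPM in miRR-NSP2ox, 58.7, 42.6 and 44.7 CPM in NSP2ox and 24, 38.4 and 38.9 CPM in NSP1ox, against 12.7, 9.76 and 12.8 CPM in EV. Medtr1g018420 had 76.3, 92 and 89 CPM in miRR-NSP2ox, 46.4, 38 and 44.3 CPM in NSP2ox and 24, 36.7 and 30.8 CPM in NSP1ox, against 9.32, 11.3 and 10.7 CPM in EV. Both genes stepped down through the 4 groups with no overlap between neighbouring groups. Medtr5g006450 and Medtr4g128570 did the same at lower levels, with means of 25.9 and 11.9 CPM in miRR-NSP2ox, 11.4 and 4.9 CPM in NSP2ox and 8.37 and 3.35 CPM in NSP1ox, against 2.41 and 1.15 CPM in EV. Medtr3g051530 was nearly as high in NSP2ox (5.01, 5.8 and 5.53 CPM) as in miRR-NSP2ox (6.61, 7.64 and 6.65 CPM), against 0.386, 0.755 and 0.246 CPM in EV.

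Replicates of Medtr0054s0090, on scaffold 0054, were more scattered. It had 8.18, 18.2 and 12.9 CPM in miRR-NSP2ox, 13.9, 2.18 and 8.44 CPM in NSP2ox and 5.67, 20 and 13.6 CPM in NSP1ox, against 0, 1.26 and 0.787 CPM in EV. The 3 overexpression groups overlapped one another, and the lowest NSP2ox library came close to EV.

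Neither form of NSP2 was the stronger across the whole set. The mean was higher in miRR-NSP2ox than in NSP2ox for 71 of 126 members, and the median log2 difference between them was 0.03. All miRR-NSP2ox libraries lay above all NSP2ox libraries for 30 members, where 19.2% of all 24004 genes past the low-count filter did so, and the reverse held for 20 members, against 17.2% of all genes. Both counts are near the background.

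Several members ran against the leading genes and were highest in NSP2ox. Medtr4g099400 had 77.4, 108 and 97.1 CPM in miRR-NSP2ox, 310, 197 and 240 CPM in NSP2ox and 53.3, 15.6 and 33.8 CPM in NSP1ox, against 22.6, 68.7 and 48.8 CPM in EV. Its NSP1ox and EV libraries overlapped, with a fitted log2 fold change of -0.45 ± 0.41 (SE), and it was the only member whose mean in NSP1ox was below EV. Medtr6g078120, picked out after its values were seen, had 30.6, 30.6 and 22.6 CPM in miRR-NSP2ox, 87.8, 77.6 and 75.8 CPM in NSP2ox and 22.3, 3 and 10.6 CPM in NSP1ox, against 4.58, 15.5 and 9 CPM in EV. Medtr6g078140, Medtr6g078250 and Medtr6g078260, within the same stretch of identifiers on chromosome 6, were also highest in NSP2ox, with means of 29.3, 10.7 and 1.61 CPM in miRR-NSP2ox and 75.6, 27.6 and 3.71 CPM in NSP2ox, against 9.56, 2.07 and 0.416 CPM in EV.

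**Figure D2:**
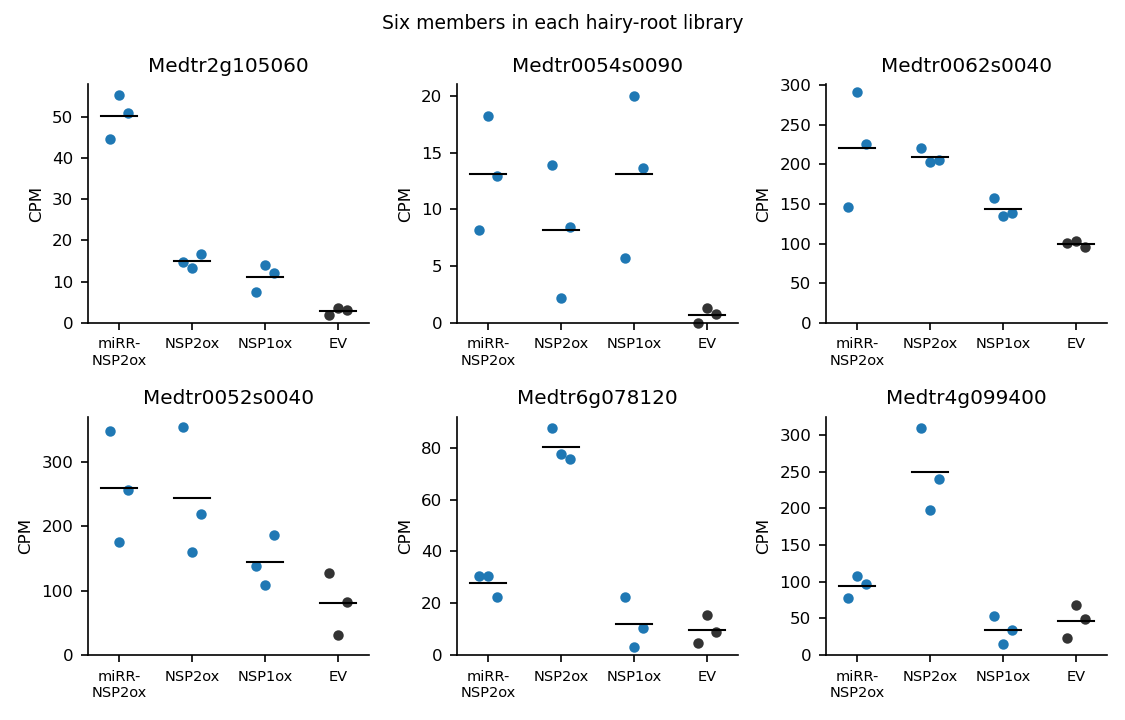
CPM (vertical axes, from 0) of 6 members in each hairy-root library; points are libraries, bars are means of 3 libraries, with the overexpression groups in blue and EV in black. Medtr2g105060 is highest in miRR-NSP2ox at 44.5 to 55.1 CPM, while Medtr6g078120 and Medtr4g099400 are highest in NSP2ox at 75.8 to 87.8 CPM and 197 to 310 CPM.

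NSP1 overexpression, which the rule did not use, raised many of the same genes. All 126 members passed the low-count filter in hairy roots, and 77 of them were higher in NSP1ox than in EV and 0 lower (edgeR quasi-likelihood test, Benjamini-Hochberg adjusted p under 0.05). Over all 24004 genes tested, 6.56% were higher and 5.17% lower, 11.7% in all, and of the other 345 raised genes 251 were higher and 2 lower. At an unadjusted p under 0.05 the edgeR counts were 103 higher and 0 lower, against 13.7% and 12.1% of all genes, and DESeq2 called 75 higher and 0 lower. The EV libraries are shared with the rule, which favours genes that happened to be low in EV, so part of this count is fixed by the choice of members. The same holds for every NSP1ox fold change and p-value of a member given below. The median fitted log2 fold change was 1.37 over the members, 1.35 over the other 345 raised genes and 0 over all genes tested. Mean levels in NSP1ox lay between EV and both NSP2 groups for 90 members and above both NSP2 groups for 7. All NSP1ox libraries were above all EV libraries for 97 members, where 16.2% of all genes were. On the log2(mean CPM + 0.5) scale, 61 members were at least 2-fold above EV in NSP1ox, against 2.37% of all genes.

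The members with the largest fold changes in NSP1ox were nearly silent in EV. Medtr4g037465 had 0.879, 0.983 and 1.45 CPM in NSP1ox and no counts in any EV library, which makes it at least 7.19-fold higher in NSP1ox against a floor of 3 counts per library (adjusted p = 0.0018 by edgeR). Medtr2g095950 had 15, 12 and 7 counts in NSP1ox and 0 in each EV library, at least 3.54-fold higher against the same floor (edgeR adjusted p = 0.01). Medtr2g075520 had 7, 8 and 12 counts in NSP1ox, against 0, 0 and 1 in EV, a 25.3-fold ratio whose exact 95% interval for counting error ran from 4.17 to 1040 (edgeR adjusted p = 0.017). Its call was lost without NSP1ox replicate 3 (edgeR adjusted p = 0.076) or EV replicate 2 (0.053). These are genes with few reads, and their levels are known only roughly. The rule used the same EV libraries, so their low EV counts are in part a result of the choice.

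Better measured was Medtr5g018790, with 3.81, 3.54 and 4.76 CPM in NSP1ox, against 0.276, 0.352 and 0.148 CPM in EV (log2 fold change 3.94 ± 0.34, SE; edgeR adjusted p = 7e-05). It was higher in NSP1ox than in either NSP2 group, which had 2.18, 0.787 and 0.843 CPM (miRR-NSP2ox) and 1.67, 3 and 2.29 CPM (NSP2ox). Medtr0054s0090 rose by a log2 fold change of 4.22 ± 0.61 (SE) in NSP1ox, with values given above (edgeR adjusted p = 0.0015). Of the 10 leading members, all were higher in NSP1ox, with log2 fold changes between 1.47 and 4.22. They were ranked by their change over the same EV libraries, so this is not separate evidence. The call of Medtr5g071560 was lost without EV replicate 3 (edgeR adjusted p = 0.056).

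A second feature of the set is that 44 members had little or no signal in seedling roots. A member was taken as detectable where its mean over all 36 seedling libraries reached 0.492 CPM, the CPM of 10 counts in the median library, and 82 members met this. Of the other 44, 27 had 3 counts or fewer in every seedling library and 17 lay between, a division made after the values were seen. These 27 are flat in A17 because hardly any reads were counted there, and 11 of them had no count in any of the 36 libraries, where 3 counts correspond to 0.12 to 0.185 CPM. They made up 21.4% of the members, 5.73% of the 471 raised genes and 2.05% of the genes past the filter in hairy roots. All raised genes at 3 counts or fewer in every seedling library were members, since so few reads meet the limit on flatness. The larger share among members than among the 471 is thus fixed by the rule. Hairy roots and seedlings also differed in age, substrate, transformation and feeding, since by the study's methods the +P+N feed of hairy roots held less phosphate than the +P+N seedling plates, and the part of each in this difference was not tested.

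**Figure D3:**
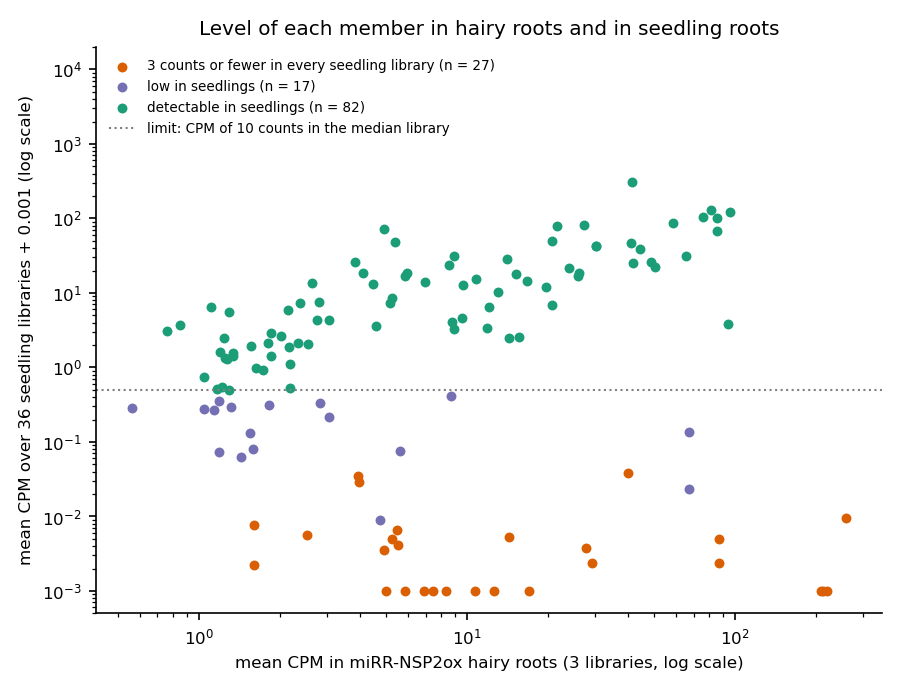
Mean CPM in miRR-NSP2ox hairy roots (horizontal axis, log scale) against mean CPM over 36 seedling libraries plus 0.001 (vertical axis, log scale) for the 126 members; each point is a gene and the dotted line is the detection limit of 0.492 CPM. The 27 members with 3 counts or fewer in every seedling library sit at the bottom yet reach 260 CPM in hairy roots, and the 82 detectable members lie above the line.

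The 27 members near 0 in seedlings were not near 0 in hairy roots. Their means had a median of 8.32 CPM in miRR-NSP2ox and 7.32 CPM in NSP2ox, against 1.82 CPM in EV, and none of them was at 3 counts or fewer in all EV libraries. The most abundant in miRR-NSP2ox was Medtr0052s0040, with 348, 175 and 257 CPM in miRR-NSP2ox, 354, 160 and 219 CPM in NSP2ox and 139, 108 and 186 CPM in NSP1ox, against 128, 31.3 and 82.3 CPM in EV. Its overexpression libraries were highest in replicate 1 of both NSP2 groups, its NSP1ox and EV libraries overlapped, and the NSP1ox change did not pass the test (log2 fold change 0.85 ± 0.37, SE; edgeR adjusted p = 0.18). Scaffold 0052 holds 14 genes past the filter in hairy roots, of which this was the only member, and the scaffold took between 0.635% and 4.86% of all counts in a hairy-root library and at most 0.0119% in a seedling library.

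Some members of this class had neighbouring identifiers, and how often this holds over all genes was not counted. On scaffold 0062, 6 of the 7 genes past the filter were members. Medtr0062s0040, the most abundant of them, had 146, 291 and 226 CPM in miRR-NSP2ox, 221, 203 and 205 CPM in NSP2ox and 157, 135 and 139 CPM in NSP1ox, against 101, 103 and 95.5 CPM in EV, and no count in any seedling library. Medtr0062s0060 and Medtr0062s0090 ran close to it, with means of 209 and 212 CPM in miRR-NSP2ox, 187 and 194 CPM in NSP2ox and 127 and 132 CPM in NSP1ox, against 86.8 and 91.1 CPM in EV. The NSP1ox libraries of Medtr0062s0040 did not overlap EV, and it rose by a log2 fold change of 0.53 ± 0.08 (SE; edgeR adjusted p = 0.0014). The miRR-NSP2ox replicates of these genes were spread widely, with replicate 1 lowest and replicate 2 highest.

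Medtr2g036240, Medtr2g036260 and Medtr2g036290 formed another run, on chromosome 2. Medtr2g036290 had 6.55, 6.16 and 4.96 CPM in miRR-NSP2ox, 1.34, 2.18 and 2.21 CPM in NSP2ox and 2.39, 1.77 and 2.15 CPM in NSP1ox, against 0.221, 0.553 and 0.148 CPM in EV, and no count in seedlings. Its NSP1ox change was 2.74 ± 0.44 (SE) on the log2 scale (edgeR adjusted p = 0.0027). Counts of Medtr2g036240 and Medtr2g036260 agreed within sampling noise in every hairy-root library, and so did those of Medtr6g008900 with Medtr4g071620, Medtr3g467750 with Medtr3g067270, and Medtr3g015270 with Medtr4g050830. In seedlings Medtr3g467750 and Medtr3g067270 differed beyond that noise in 9 of 36 libraries, at means of 0.137 and 0.0221 CPM. Such pairs may share reads, so their values are uncertain, and counting each of the 4 pairs once leaves 122 members. By identifier, 13 members (10.3%) lay on unplaced scaffolds, against 2.82% of genes past the filter, and 8 of these 13 were near 0 in seedlings. Chromosome 4 held 25 members (19.8%), against 15.9% of genes past the filter, and chromosome 6 held 13 (10.3%), against 6.27%. Chromosome 7 held 8 (6.35%), against 11.9%. These shares were not tested.

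For the seedling comparisons, 91 of the 126 members passed the low-count filter: all 82 detectable members, 9 of the 17 low ones and 0 of the 27 near 0. The mutant libraries were not used by the rule, but A17 libraries were. The comparisons of each mutant with A17 in one regime ask whether these genes also differed in the nsp1 or nsp2 mutant.

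In nsp1, the share of members that was lower stood furthest above the background at +P-N. In this regime 14 of 91 members were lower in nsp1 than in A17 and 3 higher, against 2.5% of all 24630 genes tested lower and 1.94% higher, 4.44% in all. At -P+N, 15 were lower and 24 higher, against 17.2% and 15.4% of all genes, 32.6% in all, so the share that was lower is near the background. At -P-N, 3 were lower and 4 higher, against 0.723% and 1.6% of all genes, 2.33% in all. At +P+N, 6 were lower and 3 higher, against 2.75% and 3.57% of all genes, 6.32% in all. The number lower at +P+N was 15 without A17 +P+N replicate 2, which brought the total of 9 to 18, and between 2 and 4 without any other single library. Without A17 +P+N replicate 2, 9.49% of all genes were called.

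In nsp2, the share that was lower stood furthest above the background at +P+N. In this regime 13 of 91 were lower in nsp2 than in A17 and 4 higher, against 2.61% and 1.99% of all genes, 4.6% in all. At +P-N, 9 were lower and 6 higher, against 6.43% and 5.02% of all genes, 11.4% in all. At -P+N, 13 were lower and 19 higher, against 15.2% and 12.7% of all genes, 27.8% in all, so here too the share that was lower is near the background. At -P-N, 5 were lower and 5 higher, against 2.93% and 2.63% of all genes, 5.56% in all. Except at -P+N, these totals moved by over 1.5 times without some single libraries, and the share of all genes called moved as well. The total of 17 at +P+N was 11 without nsp2 +P+N replicate 1, 9 without A17 +P+N replicate 1 and 8 without A17 +P+N replicate 3. Of all genes, 2.25%, 1.86% and 1.76% were then called, in the same order, against 4.6% with every library. The total of 15 at +P-N was 9 without nsp2 +P-N replicate 2 or replicate 3, 8 without A17 +P-N replicate 3 and 24 without A17 +P-N replicate 1. Of all genes, 8.23%, 8.67%, 7.37% and 10% were then called, in the same order. The total of 10 at -P-N was 6 without nsp2 -P-N replicate 2, 5 without A17 -P-N replicate 2 and 4 without A17 -P-N replicate 3. Of all genes, 4.76%, 2.93% and 3.01% were then called, in the same order.

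Across the 8 mutant comparisons, 34 of 91 members were lower in at least one, against 29.8% of all genes, and 35 were higher in at least one, against 28.4%. In the same regime, 11 were lower in both mutants, against 11.4% of all genes, a share near the background. The other 345 raised genes, of which 344 were tested, were called more often at +P-N in nsp1 (139 lower, 40.4%) and at +P+N in nsp2 (93 lower, 27%). These 344 had been set apart by their A17 values, and the difference between the lists was not tested.

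Medtr4g037465, on chromosome 4, was lower in both mutants in every regime. At +P+N it had 0.262, 0.109 and 0.114 CPM in nsp1 and 0.353, 0 and 0.172 CPM in nsp2, against 3.15, 3.29 and 4.46 CPM in A17. At -P+N it had no counts in nsp1 and 0.101, 0.259 and 0.252 CPM in nsp2, against 2.27, 3.15 and 4.06 CPM in A17, which is at least 19.1-fold lower in nsp1 against the floor of 3 counts per library. No mutant library overlapped A17 in any regime. Apart from that bound, the fitted log2 fold changes lay between -4.42 and -3.52 in nsp1 and between -5.26 and -3.79 in nsp2, with edgeR adjusted p between 6e-06 and 0.00045.

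Medtr5g018790, on chromosome 5, fell in nsp1 and much less in nsp2. At +P+N it had 0, 0 and 0.0572 CPM in nsp1 and 2.62, 2.37 and 1.15 CPM in nsp2, against 2.67, 2.58 and 2.36 CPM in A17. The nsp1 libraries together held 1 count, against 134 in A17, a ratio of 139 with an exact 95% interval from 24.5 to 5540 (edgeR adjusted p = 6.7e-06). In nsp1 it was also called at +P-N, with 2 counts in all against 134 in A17, at -P-N, with 4 against 223, and at -P+N, with 0 against 88, which is at least 9.59-fold lower. In nsp2 it was called at -P+N alone, at 0.603, 0.388 and 0.151 CPM in nsp2, against 1.27, 1.65 and 1.84 CPM in A17 (log2 fold change -2.03 ± 0.41, SE; edgeR adjusted p = 0.0044).

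Medtr6g015745, on chromosome 6, showed the opposite pattern. At +P+N it had 0.252, 0.237 and 0.229 CPM in nsp2 and 3.09, 1.74 and 2.69 CPM in nsp1, against 1.9, 2.23 and 2.15 CPM in A17. It was lower in nsp2 in all 4 regimes, with log2 fold changes between -3.69 and -2.3 (edgeR adjusted p between 6.9e-05 and 0.0022), and the nsp2 libraries overlapped A17 in none. In nsp1 its fitted log2 changes lay between -0.39 and 0.26 and none passed the test. Its neighbour in the identifiers, Medtr6g015795, had 3.63, 3.56 and 3.44 CPM in nsp2 at +P+N, against 7.06, 8.93 and 8.34 CPM in A17 (log2 fold change -1.21 ± 0.14, SE; edgeR adjusted p = 0.00047), and was also lower in nsp2 at -P+N and -P-N. Its change in nsp2 at +P-N was 0.13. Each mutant was a single line, so loss of the gene and other differences of that line cannot be told apart. Whether these neighbouring genes were low through the loss of NSP2 was not tested.

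Medtr0054s0090 was higher in the mutants, although it was raised by overexpression. At +P-N it had 19.1, 14.3 and 25 CPM in nsp1 and 14.3, 13.6 and 15.2 CPM in nsp2, against 2.93, 7.03 and 5.47 CPM in A17. It was higher in nsp1 in all 4 regimes, with log2 fold changes between 1.22 and 1.9 (edgeR adjusted p between 0.00014 and 0.0013). In nsp2 it was higher at +P-N (1.46 ± 0.21, SE; edgeR adjusted p = 0.00053), +P+N and -P-N, and the calls at +P+N and -P-N were each lost without any one of 3 libraries, the call at -P-N also with DESeq2, while at -P+N its log2 change of 0.32 did not pass the test. Medtr8g079810, an abundant member, differed by less: it had 59.8, 58.9 and 62.2 CPM in nsp2 at +P+N, against 70.9, 88.2 and 77.6 CPM in A17, and its largest log2 fold change in the mutant comparisons was -0.47 ± 0.05 (SE), in nsp2 at -P-N (edgeR adjusted p = 0.00027).

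**Figure D4:**
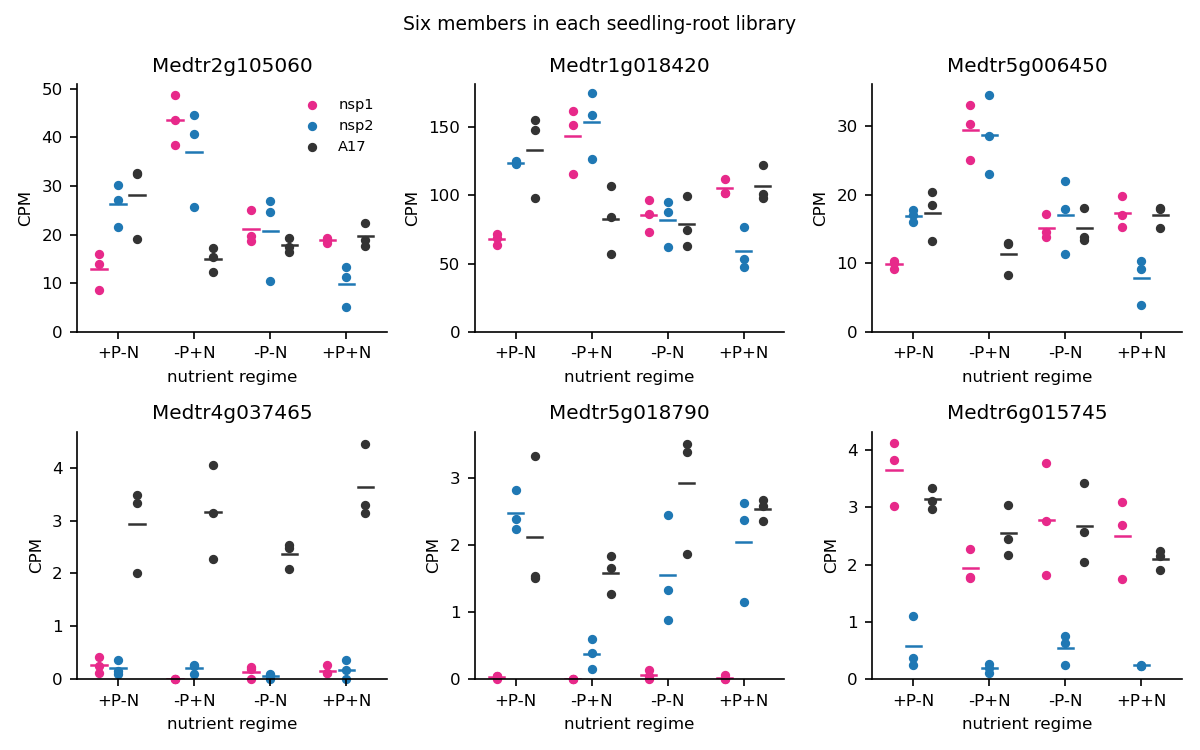
CPM (vertical axes, from 0) of 6 members in every seedling-root library under the 4 nutrient regimes (horizontal axis); points are libraries, short bars are means of 3, and colours are nsp1, nsp2 and A17. Medtr4g037465 stays at 0.412 CPM or below in all mutant libraries, Medtr5g018790 is near 0 in nsp1 and Medtr6g015745 is low in nsp2, while the upper 3 genes are low in nsp1 at +P-N and in nsp2 at +P+N.

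The starvation regimes were then compared with +P+N within each mutant, in libraries that the rule had not used. By the limit of 0.58 on group means that the rule had set in A17, applied to the mutants after the values were seen, 49 of the 91 members stayed within it in all 3 starvation regimes in nsp1, against 53.6% of all genes tested, and 50 in nsp2, against 56.4%. For 36 members this held in both mutants, against 45.4% of all genes. These shares are near or below the background. Counts of calls follow, which take in changes of any size. Within nsp1, 41 of 91 members were called at +P-N, 13 higher and 28 lower, against 29.1% of all genes higher and 28.4% lower, 57.5% in all. At -P+N the count within nsp1 was 44, 22 higher and 22 lower, against 26.6% of all genes higher and 26.3% lower, 52.9% in all. At -P-N the count within nsp1 was 43, 20 higher and 23 lower, against 31% of all genes higher and 29.7% lower, 60.7% in all. Within nsp2, 47 of 91 members were called at +P-N, 29 higher and 18 lower, against 28.3% of all genes higher and 28.7% lower, 57% in all. At -P+N the count within nsp2 was 34, 20 higher and 14 lower, against 17.5% of all genes higher and 18% lower, 35.5% in all. At -P-N the count within nsp2 was 33, 20 higher and 13 lower, against 29.8% of all genes higher and 28.9% lower, 58.8% in all. The share of members called was thus between 36.3% and 51.6%, near or below the background in each comparison, and 76 of the 91 were called in at least one of the 6, against 86.3% of all genes. The median log2 change over members lay between -0.1 and 0.21, against 0.01 to 0.02 over all genes.

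The largest changes within the mutants were in genes of low level. Medtr8g445330 fell at -P+N to 0.0996, 0.27 and 0.0633 CPM within nsp1, against 0.944, 0.706 and 0.63 CPM at +P+N (log2 fold change -2.32 ± 0.54, SE; edgeR adjusted p = 0.0026). Within nsp2 its log2 fold change at -P+N was -3.67 ± 0.52 (SE; edgeR adjusted p = 0.00055), with 0.0503, 0.0431 and 0.101 CPM, against 0.957, 0.759 and 0.975 CPM at +P+N. Its A17 means also moved, at 0.284 CPM at -P+N, 0.148 CPM at -P-N and 0.877 CPM at +P-N, against 0.464 CPM at +P+N. The pseudocount of 0.5 kept these A17 differences within the limit. Medtr5g040940 was higher within nsp1 at -P+N, with 3.19, 1.24 and 2.47 CPM, against 0.629, 0.652 and 0.63 CPM at +P+N (log2 fold change 1.84 ± 0.36, SE; edgeR adjusted p = 0.00076). The A17 mean of Medtr5g040940 was also higher at -P+N, at 1.12 CPM, against 0.618 CPM at +P+N. Medtr8g073700 was lower within nsp1 at -P+N, with 1.05, 1.03 and 1.52 CPM, against 3.77, 3.42 and 3.84 CPM at +P+N (log2 fold change -1.63 ± 0.23, SE; edgeR adjusted p = 4.6e-05). Medtr7g031847 was higher within nsp2 at -P+N, with 0.603, 0.431 and 0.806 CPM, against 0.151, 0.0949 and 0.115 CPM at +P+N (log2 fold change 2.3 ± 0.53, SE; edgeR adjusted p = 0.0073). Medtr4g017240, Medtr7g101890 and Medtr0191s0020 also changed within a mutant, with means of at most 0.569, 0.786 and 1.23 CPM in any seedling group, and each lost a call when single libraries were left out.

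At +P-N most of the leading members moved in opposite directions in the 2 mutants. Medtr0054s0090 did not, with fitted log2 changes of 0.38 within nsp1 and 0.34 within nsp2, and Medtr2g036290 had no seedling count. Medtr1g018420 had 63.4, 68.7 and 72.1 CPM in nsp1 at +P-N, against 102, 102 and 112 CPM in nsp1 at +P+N, and 123, 125 and 124 CPM in nsp2 at +P-N, against 47.2, 53.2 and 76.7 CPM in nsp2 at +P+N. It fell by 0.67 on the log2 scale within nsp1 (edgeR adjusted p = 5.2e-08) and rose by 1.01 within nsp2 (edgeR adjusted p = 4.7e-05), with no overlap between regimes in either mutant. In A17 it had 98, 148 and 155 CPM at +P-N, against 98.1, 122 and 101 CPM at +P+N. Medtr2g105060 had 14, 16.1 and 8.7 CPM in nsp1 at +P-N, against 18.3, 18.9 and 19.3 CPM in nsp1 at +P+N, and 21.5, 30.3 and 27.1 CPM in nsp2 at +P-N, against 5.09, 11.2 and 13.3 CPM in nsp2 at +P+N. Medtr5g006450 had 10.4, 10.1 and 9.25 CPM in nsp1 at +P-N, against 17, 15.3 and 19.8 CPM in nsp1 at +P+N, and 17.1, 17.8 and 16 CPM in nsp2 at +P-N, against 3.93, 9.25 and 10.3 CPM in nsp2 at +P+N.

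This pattern was shared by 12 members, called lower at +P-N within nsp1 and higher at +P-N within nsp2, against 0.317% of all genes tested, and 8 of the 12 were among the 10 members with the largest change in miRR-NSP2ox. They were Medtr2g105060, Medtr7g108650, Medtr5g071560, Medtr5g006450, Medtr1g018420, Medtr2g086920, Medtr3g051530 and Medtr4g128570, joined by Medtr4g116480, Medtr2g030420, Medtr0010s0050 and Medtr6g015795. The reverse pattern was called for 0 members and for 0.0284% of all genes. Some of these calls were not stable. Within nsp2, that of Medtr7g108650 (edgeR adjusted p = 0.024) was lost without +P-N replicate 1 (0.052) or replicate 3 (0.13) or +P+N replicate 2 (0.086) or replicate 3 (0.061). That of Medtr4g128570 within nsp2 (edgeR adjusted p = 0.038) was lost with DESeq2 (0.096), with a replicate block (0.052) and without +P-N replicate 3 (0.18) or +P+N replicate 1 (0.1) or replicate 2 (0.079). That of Medtr2g105060 within nsp1 was lost with all groups in 1 fit (edgeR adjusted p = 0.098). Over the 12, the median level was 12.4 CPM in nsp1 at +P-N and 20.8 CPM in nsp2 at +P-N, against 21.8 CPM in A17 at +P-N, and 19.7 CPM in nsp1 at +P+N and 10 CPM in nsp2 at +P+N, against 18.3 CPM in A17 at +P+N. The low groups were thus nsp1 at +P-N and nsp2 at +P+N, each of which enters the comparison with A17 and the comparison of regimes.

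A test of the difference itself, added after these values were seen, fitted both mutants and both regimes together. The change at +P-N was larger in nsp2 than in nsp1 for 15 of 91 members and smaller for 0, against 2.51% of all genes with a larger change in nsp2 and 3.1% with a difference in either direction (edgeR quasi-likelihood interaction test, adjusted p under 0.05). At an unadjusted p under 0.05 it was larger in nsp2 for 23 members and smaller for 3, and DESeq2 was not run on this difference. All 12 members above were among the 15. They had been chosen by opposite calls in the same libraries, so this overlap is not separate evidence. The difference was 1.97 ± 0.33 (SE) on the log2 scale for Medtr2g105060 (edgeR adjusted p = 0.0016) and 1.7 ± 0.16 for Medtr1g018420 (edgeR adjusted p = 3.7e-06). Leaving out single libraries gave between 13 and 17 members. Among the other 344 raised genes tested, 131 had a larger change in nsp2 and 4 a smaller one, so the pattern was not particular to the members. At -P+N and -P-N the mutants differed for 3 and 4 members, against 0.784% and 1.47% of all genes. The 3 at -P+N were 0 without nsp1 +P+N replicate 2 or replicate 3 and 1 without nsp2 +P+N replicate 1 or replicate 2, and the 4 at -P-N were 2 without nsp1 +P+N replicate 1 or replicate 3 or nsp2 -P-N replicate 3. Of all genes, 0.203% to 0.353% were then called at -P+N and 0.682% to 1.21% at -P-N.

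**Figure D5:**
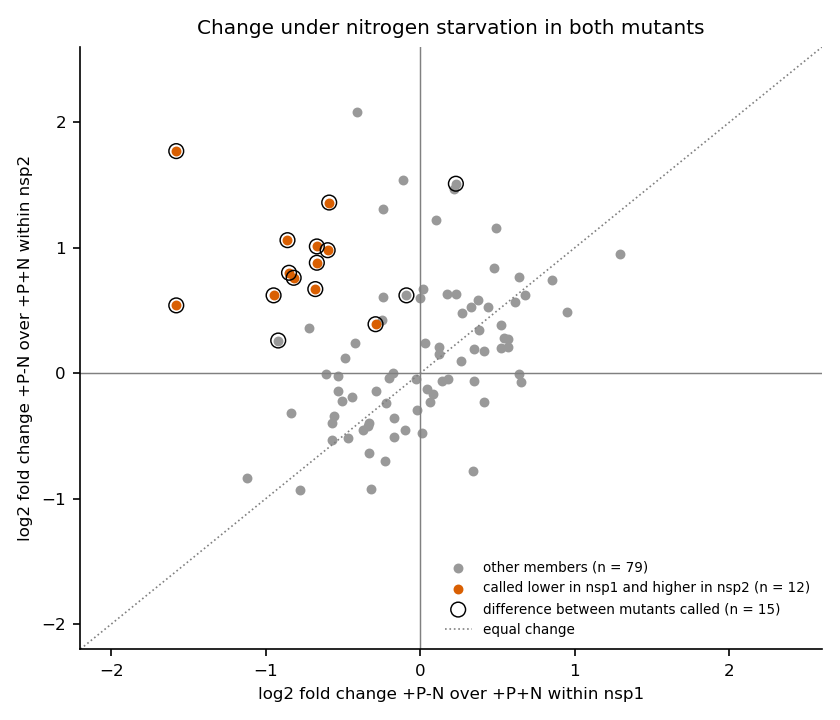
Log2 fold change of +P-N over +P+N within nsp1 (horizontal axis) and within nsp2 (vertical axis) for the 91 members tested in seedlings; each point is a gene, orange marks the 12 members called lower in nsp1 and higher in nsp2, and rings mark the 15 members whose change differed between the mutants. All ringed points lie above the dotted line of equal change.

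At -P+N, 6 of the 9 leading members tested in seedlings were higher in both mutants than in A17, 2 in nsp1 alone and 1 in neither. Over all members tested, 15 of 91 were higher in both mutants at -P+N, against 7.2% of all genes. Both comparisons share their A17 libraries, which the rule also used, so they are not separate evidence. With each mutant taken alone, the other 344 raised genes tested were called higher more often than members in this regime. For nsp1 the shares were 42.4% of those genes and 26.4% of members. For nsp2 they were 43.6% and 20.9%, and the difference between the lists was not tested. Among the 6, the nsp2 call of Medtr2g086920 (edgeR adjusted p = 0.03) was lost with DESeq2 (0.11) and without nsp2 -P+N replicate 2 (0.05) or replicate 3 (0.12) or A17 -P+N replicate 1 (0.07) or replicate 2 (0.1). Medtr2g105060 had 38.4, 48.7 and 43.6 CPM in nsp1 and 25.6, 40.6 and 44.7 CPM in nsp2, against 15.3, 12.4 and 17.3 CPM in A17, with log2 fold changes of 1.54 ± 0.12 in nsp1 and 1.31 ± 0.19 in nsp2 (SE; edgeR adjusted p = 4.6e-06 and 0.00066). Medtr5g006450 had 25.1, 33.1 and 30.3 CPM in nsp1 and 23.1, 28.6 and 34.6 CPM in nsp2, against 8.23, 13 and 12.8 CPM in A17, with log2 fold changes of 1.38 ± 0.15 and 1.34 ± 0.17 (SE; edgeR adjusted p = 5e-05 and 0.00036). Neither gene had a mutant library that overlapped A17. At -P-N the means of Medtr2g105060 were 21.2 CPM in nsp1 and 20.7 CPM in nsp2, against 17.8 CPM in A17, and neither comparison passed the test.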

How the data were processed

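Root RNA was enriched for poly A, sequenced as paired-end reads and, by the study's methods, checked with FastQC, aligned to the M. truncatula genome Mt4.0v1 with STAR and counted per gene with featureCounts. Software versions, strand setting and treatment of multi-mapping reads were not given in the sources used here. The authors deposited raw read counts, neither filtered nor pooled, in a table of 12 hairy-root libraries and a table of 36 seedling libraries. A barley table was not used.

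Counts were scaled to CPM with TMM factors in each table. Group means, a pseudocount of 0.5 and the limits of 1 and 0.58 chose the members. Tests used edgeR 4.0.16 (R 4.3.3, quasi-likelihood, 2 groups per fit) on genes reaching the CPM of 10 counts in the median library in at least 3 libraries of the table (0.494 CPM in hairy roots, 0.492 in seedlings), with Benjamini-Hochberg adjustment over all genes tested and a threshold of 0.05. The SE is the log2 fold change divided by the root of F. Intervals and floors cover counting error only. The edgeR test between 2 groups was also run on simulated data, for NSP1ox against EV and nsp1 against A17 at +P+N. The interaction test was not, and the outcome is not given here. Alternatives were DESeq2 1.42.0, DESeq2's size factors (RLE), no filter, 1 fit over all groups, a replicate block, other pseudocounts and leaving out each library.

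The members and lists were chosen with earlier results of these data known. Named genes are the 10 members with the largest miRR-NSP2ox change, the 5 highest in EV, up to 10 called in a mutant in at least 2 regimes, in order of adjusted p, and the 5 most changed among those called in NSP1ox and within each mutant. The class near 0 in seedlings, the difference between mutants and the limit applied within mutants were chosen after the values were seen. None of the 50894 identifiers matched the annotation at hand, so planned lists of annotated genes, tissue markers, sequences and promoter motifs were not analysed here.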

Additional observations from a re-analysis of the deposited data

Results flagged for a closer look

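The change at +P-N against +P+N differed between nsp2 and nsp1 for 15 members, and for each of these the change was larger in nsp2 (edgeR interaction test, added after the values were seen). Among the named members the difference, nsp2 minus nsp1, was 2.14 on the log2 scale for Medtr4g128570, 1.97 for Medtr2g105060, 1.93 for Medtr5g006450, 1.70 for Medtr1g018420, 1.67 for Medtr3g051530, 1.59 for Medtr2g086920, 1.59 for Medtr4g116480, 1.58 for Medtr5g071560, 1.56 for Medtr6g015795 and 1.37 for Medtr7g108650.

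At -P+N the difference was called for 3 members, at 1.01 for Medtr3g051530, 1.01 for Medtr4g116480 and 0.84 for Medtr2g086920. At -P-N it was called for 4 members, among them Medtr4g116480 at 1.03 and Medtr2g086920 at 0.85, while Medtr8g079810 had a larger change in nsp1, at -0.31. The 3 differences share the +P+N libraries of both mutants, so they are not separate evidence.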

How the results depend on the processing

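The rule found 79 genes with a pseudocount of 1 and 292 with 0.1, against 126 with 0.5. Without a low-count filter, the count of members called was 15 for nsp1 at +P+N, 12 for nsp1 at -P-N and 23 for nsp2 at +P-N, and the mutants' changes differed for 6 members at -P+N and 7 at -P-N. The main tests did not pair samples by the labels' replicate numbers. In none of the 15 comparisons were all 3 correlations of same-numbered deviations over 0.1, which does not show that samples were unpaired. Each sample correlated best with its own number in nsp1 against A17 at +P-N alone, at 0.09, 0.1 and 0.09. With a replicate block the count was 23 for nsp2 against A17 at +P-N and 6 for the difference at -P+N, and the block moved no other count by over 1.5 times. RLE size factors, DESeq2 and 1 fit over all groups moved none by over 1.5 times where run. Shares of all genes in these settings are not given here, and the cause of these shifts was not tested.

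Leaving out each library gave 115 to 153 members. The count called was 52 to 76 for NSP1ox. For nsp1 against A17 it was 6 to 18 at +P+N, 13 to 20 at +P-N, 29 to 40 at -P+N and 5 to 9 at -P-N. For nsp2 against A17 it was 8 to 19 at +P+N, 8 to 24 at +P-N, 24 to 33 at -P+N and 4 to 13 at -P-N. Within nsp1 it was 37 to 45 at +P-N, 35 to 41 at -P+N and 33 to 44 at -P-N, and within nsp2 41 to 47, 23 to 36 and 22 to 31 in the same order. The mutants' changes differed for 13 to 17 members at +P-N, 0 to 4 at -P+N and 2 to 6 at -P-N. Where such a count moved by over 1.5 times, the share of all genes called is given above. Of 172 calls of named genes, 127 held under every alternative run and none changed direction. With 3 libraries a group, members of few counts are known only roughly, and the 35 members below the seedling filter were not tested in seedlings.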
